A study of Drosophila melanogaster with 22 samples.

Results

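The 3 prophenoloxidase genes of Drosophila melanogaster, PPO1 (FBgn0283437), PPO2 (FBgn0033367) and PPO3 (FBgn0261363), were followed through larval blood cells and lymph glands with and without wasp infestation. They were chosen by gene identifier and are 3 of the 13721 genes with at least 1 count in the 16 nanopore libraries compared here. Each gene was read in every library, and the ratio of PPO3 to PPO1 plus PPO2 was formed library by library.

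Prophenoloxidases are copper-containing enzyme precursors that are typically cleaved by serine proteases. Active phenoloxidase oxidises phenols to the quinones that polymerise into melanin. In fly larvae PPO1 and PPO2 are products of crystal cells, the hemocytes that rupture and release the enzymes at wounds. PPO3 is a product of lamellocytes, large flat hemocytes that wrap parasitoid wasp eggs, and the capsule around such an egg is melanised.

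All larvae were of the wild-type OreR strain, and no group carried a transgene or mutation by its labels. Circulating hemocytes (called blood) and lymph glands, in which larval hemocytes form, came from larvae aged 96 h or 120 h from egg laying. Larvae were normal or had been infested for 24 h (aged 96 h) or 48 h (aged 120 h). The hemocyte protocol vortexed 100 to 150 larvae per condition with glass beads and then dissected 10 larvae per replicate, so blood libraries pool larvae. The number of larvae behind a lymph gland library is not clear from the labels, and nothing in the labels says that replicates came from separate cultures. The p-values below therefore measure the spread between these libraries, which may be technical. Nanopore cDNA libraries made with the SQK-PCB109 kit numbered 3 for normal and 3 for infested lymph gland at 96 h. For blood there were 2 normal and 3 infested libraries at each age. A library of normal lymph gland at 120 h came from another kit, SQK-PCS109, and 5 Illumina libraries covered 1 sample each of 96 h infested lymph gland and the 4 blood conditions.

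Gene counts per library ran from 356632 to 2079764 in the 16 libraries, to 6223590 in the 120 h lymph gland library, and from 14750855 to 24307061 expected counts in the Illumina libraries. Summed levels of 6 lymph gland progenitor and niche markers were 2670 to 2853 CPM (counts scaled to the same sum in each library) in normal lymph gland at 96 h, 1151 to 1337 CPM in infested lymph gland and 180 to 332 CPM in all blood libraries, so the tissue labels and these markers went together. Within a blood group the counts of replicates 2 and 3 differed little (chi-square per degree of freedom 2.67 to 3.18), though by more than sampling noise, and those of replicate 1 differed more from both (10 to 20.4), and the normal blood groups have no replicate 1. Infested blood was therefore also tested without replicate 1. Summed levels of 14 midgut markers were 0 to 5.61 CPM in normal and 134 to 2424 CPM in infested lymph gland. In blood they were 285 to 288 CPM (normal) against 2773 to 4332 CPM (infested) at 96 h, and 596 to 630 CPM against 30.3 to 73.9 CPM at 120 h. Of the 9 midgut markers tested, 7 rose with infestation in lymph gland and 6 in blood at 96 h, and 7 fell in blood at 120 h (5.13%, 4.97% and 19.4% of all 7076 genes tested passed in those comparisons, in either direction). Jon25Bii, 1 of the 6 that rose in blood at 96 h, passed the filter on low counts through infested libraries alone, so it had to differ. With DESeq2 the counts of these rises and falls were 7, 5 and 7. The midgut amylase gene Amy-d had no read in any of the 6 groups. Summed levels of 12 muscle markers in blood were 2901 to 3320 CPM (normal) and 1045 to 2968 CPM (infested) at 96 h, and 495 to 536 CPM and 491 to 1492 CPM at 120 h. Those of 9 fat body markers were 477 to 1284 CPM and 2039 to 2593 CPM at 96 h, and 3645 to 4217 CPM and 866 to 5055 CPM at 120 h. Of the 12 muscle markers, 2 fell with infestation in blood at 96 h, or 9 without replicate 1 of both infested blood groups. Of the 9 fat body markers, 4 rose at 96 h and 3 fell at 120 h, or 7 without those libraries. The part of midgut, muscle or fat body RNA in the results below was not tested.

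The genes lie apart on chromosome arm 2R, and each has 1 annotated transcript, so isoforms were not compared. In the Ensembl annotation of BDGP6.54, PPO1 spans 2R:17887220-17889973 on the minus strand with 6 exons and encodes 690 amino acids. PPO2 spans 2R:9042261-9044709 on the minus strand with 4 exons and encodes 684 amino acids, and PPO3 spans 2R:23064769-23067183 on the plus strand with 4 exons and encodes 683 amino acids. The exons add up to 2338, 2280 and 2228 bases, the same as the lengths in the Illumina tables. The build behind the counts is not given in the sources used here. PPO1 lies within the span of the gene Elk on the opposite strand without exon overlap, and Elk held 0 to 9.66 CPM. The gene l(2)k09913 lies 12 bases downstream of PPO3 on the same strand and held 44.3 to 168 CPM in the same 16 libraries, including those in which PPO3 had no read.

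PPO1, with fewer reads than PPO2 in every library, was highest in normal blood at 96 h. Its level in TMM-scaled CPM (CPM of a library size adjusted by the trimmed mean of M-values) was 3724 and 3568 in the 2 libraries of normal blood at 96 h, and 1959 and 1970 in those at 120 h. In normal lymph gland at 96 h it was 830, 843 and 1542. With infestation it was 62.7, 119 and 37.7 in lymph gland, 541, 1154 and 1118 in blood at 96 h, and 228, 540 and 545 in blood at 120 h (replicates 1, 2 and 3). No infested library reached its own tissue and age's normal libraries. In order of group means, normal lymph gland (1072 ± 407, SD, n = 3) and infested blood at 96 h (938 ± 344, n = 3) overlapped, as did infested blood at 96 h and at 120 h (438 ± 182, n = 3). The other neighbours in that order did not overlap.

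PPO2, the crystal cell form that is stored as crystals in those cells, was also highest in normal blood at 96 h and lowest in infested lymph gland. It stood at 6183 and 5712 TMM-scaled CPM in normal blood at 96 h and at 2671 and 2647 in normal blood at 120 h. Normal lymph gland held 1564, 1355 and 2537. Infested lymph gland held 139, 156 and 76.1. Infested blood held 949, 2344 and 2277 at 96 h and 395, 900 and 896 at 120 h, with replicate 1 the lowest in both. Among neighbours in the order, infested blood at 96 h (1857 ± 787, n = 3) and normal lymph gland (1819 ± 631, n = 3) overlapped and the others did not. By number of reads PPO2 was the 20th most counted gene in each normal blood library at 96 h, and between the 771st and the 1432nd in infested lymph gland.

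PPO3 was near absent from normal libraries. It had 2, 0 and 0 reads in the 3 libraries of normal lymph gland, 0 and 3 in normal blood at 96 h, and 12 and 5 in normal blood at 120 h, which are at most 7.58 TMM-scaled CPM. A count of 0 allowed up to 2.3 and 2.4 unscaled CPM in those lymph gland libraries and 5.28 unscaled CPM in the blood library (3 counts of the total, counting error only). Infested lymph gland held 277, 32 and 176 reads, or 165, 84.7 and 125 TMM-scaled CPM. Infested blood held 417, 657 and 669 TMM-scaled CPM at 96 h and 695, 1069 and 1005 at 120 h. The infested groups stood apart from each other in the order blood at 120 h, blood at 96 h and lymph gland, with no overlap, and normal blood at 96 h overlapped normal lymph gland.

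**Figure D1:**
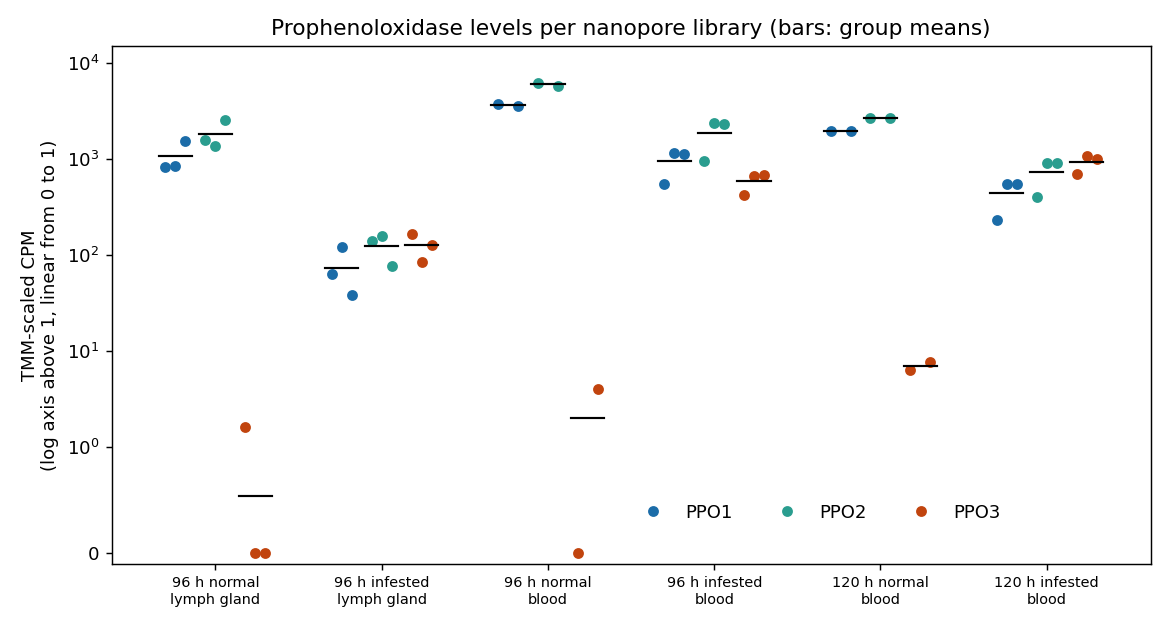
TMM-scaled CPM of PPO1, PPO2 and PPO3 (vertical axis, logarithmic above 1 and linear below) in each of the 16 nanopore libraries by group (horizontal axis), with points for libraries and bars for group means. PPO1 and PPO2 lie lower and PPO3 higher in each infested group than in its normal group, and PPO3 reaches at most 7.58 CPM in a normal library.

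Infestation was compared with no infestation in each tissue and age by edgeR's quasi-likelihood test over 7076 genes, with Benjamini-Hochberg adjustment at 0.05. PPO1 and PPO2 fell and PPO3 rose in all 3 comparisons. In lymph gland, where 5.13% of the genes tested passed, PPO1 changed by -3.98 ± 0.46 on the log2 scale (SE, edgeR adjusted p = 6.40e-05), PPO2 by -3.90 ± 0.43 (edgeR adjusted p = 4.21e-05) and PPO3 by 7.57 ± 0.57 (edgeR adjusted p = 9.54e-07). In bulk samples such as these, fewer cells of a type and less RNA per cell cannot be told apart. PPO3 passed the filter on low counts through its infested libraries, so its presence among the tested genes already required a difference.

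In blood at 96 h 4.97% of the genes tested passed. There PPO1 changed by -1.96 ± 0.43 (edgeR adjusted p = 0.0159), PPO2 by -1.68 ± 0.41 (edgeR adjusted p = 0.0272) and PPO3 by 7.89 ± 0.60 (edgeR adjusted p = 1.10e-06). Both falls lost their call when either normal library or infested replicate 1 was left out, with edgeR adjusted p between 0.0511 and 0.108 for PPO1 and between 0.0716 and 0.165 for PPO2, and they held without replicate 1 of both infested blood groups (-1.65 and -1.33, edgeR adjusted p = 0.012 and 0.0157). With replicates 2 and 3 of each blood group summed into 1 sample, the falls of PPO1 and PPO2 no longer passed at 96 h (edgeR adjusted p = 0.271 and 0.305) nor at 120 h (0.0746 and 0.096).

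In blood at 120 h 19.4% of the genes tested passed, so a call there is more common. PPO1 changed by -2.16 ± 0.44 (edgeR adjusted p = 0.00252), PPO2 by -1.86 ± 0.41 (edgeR adjusted p = 0.00495) and PPO3 by 7.08 ± 0.49 (edgeR adjusted p = 1.09e-07). Without replicate 1 of both infested blood groups the values were -1.77, -1.48 and 7.33, and all passed.

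Because the normal libraries hold so few PPO3 reads, the size of its rise is loosely set. Over pooled counts it was 286-fold in lymph gland (485 against 2 reads, exact 95% interval 78.9 to 2372), 284-fold in blood at 96 h (2046 against 3 reads, 97 to 1377) and 160-fold in blood at 120 h (3141 against 17 reads, 100 to 276). The 3 intervals overlap. They cover counting error only, since reads without molecular identifiers are not independent molecules.

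Whether the response differed between tissues or ages was asked with interaction terms. The falls of PPO1 and PPO2 at 96 h were smaller in blood than in lymph gland by log2 values of 2.02 ± 0.62 and 2.22 ± 0.58. Neither passed over all genes (edgeR adjusted p = 0.298 and 0.172, 0.283% of genes passed). DESeq2 gave PPO2 an adjusted p of 0.0266 for the same term. Between 120 h and 96 h the infestation effects in blood differed by -0.20 for PPO1 and -0.18 for PPO2, with 95% intervals of -1.52 to 1.11 and -1.43 to 1.06 (edgeR adjusted p = 0.958 and 0.96, 1.94% of genes passed). For PPO3 the terms were 0.32 between tissues and -0.81 between ages (edgeR adjusted p = 1 and 0.816), and both rest on the few normal reads.

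**Figure D2:**
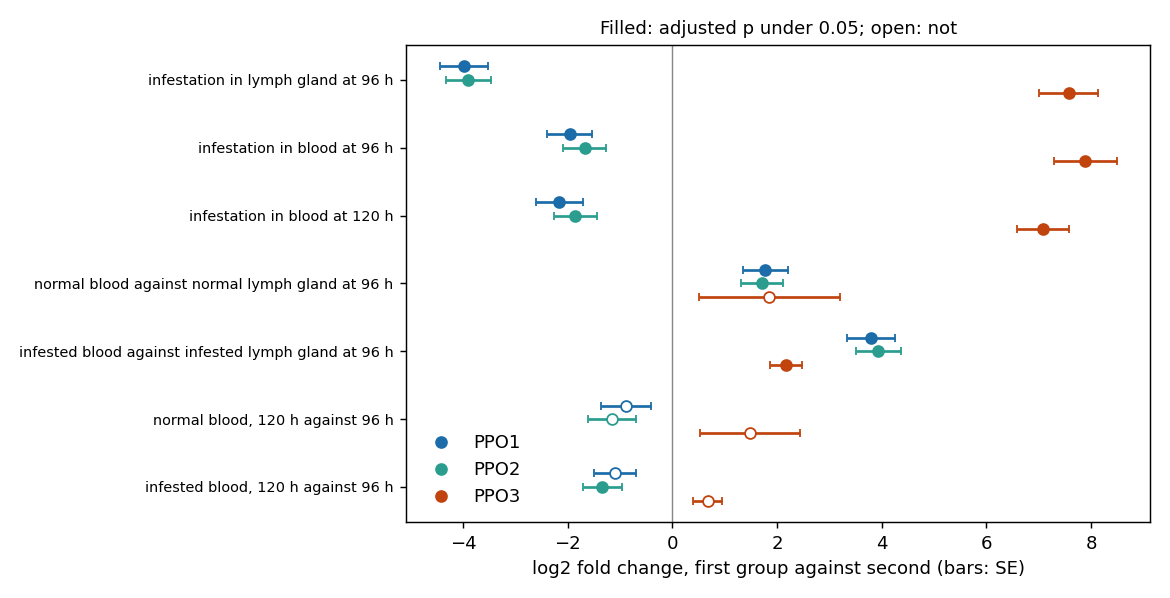
Log2 fold changes (horizontal axis, first group against second, bars are SE) of PPO1, PPO2 and PPO3 in 7 comparisons (vertical axis), filled where the edgeR adjusted p was under 0.05. PPO3 lies between 7.08 and 7.89 for infestation in all 3 settings, while PPO1 and PPO2 lie near -4 in lymph gland and between -1.68 and -2.16 in blood.

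The tissues and ages were also compared directly. In normal larvae at 96 h, blood held more PPO1 (1.77 ± 0.43, edgeR adjusted p = 0.0192) and PPO2 (1.71 ± 0.41, edgeR adjusted p = 0.0173) than lymph gland, with 7.5% of genes passing. Both calls were lost without normal lymph gland replicate 1 or 2 or either blood library (edgeR adjusted p = 0.0703 to 0.0995). PPO3 differed by 1.85 ± 1.35 (edgeR adjusted p = 0.515). After infestation blood exceeded lymph gland by 3.79 ± 0.46 for PPO1, 3.93 ± 0.43 for PPO2 and 2.17 ± 0.30 for PPO3 (edgeR adjusted p = 5.60e-05, 1.94e-05 and 0.000163, 11% of genes passed).

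Blood was also compared between the ages. In infested blood, and in the infestation effects compared between ages, age and time since infestation changed together and cannot be told apart. In normal blood, 120 h against 96 h, PPO1 changed by -0.89 ± 0.48, PPO2 by -1.16 ± 0.46 and PPO3 by 1.48 ± 0.95, and none passed (edgeR adjusted p = 0.359, 0.187 and 0.462, 4.27% of genes passed), although the libraries of both ages did not overlap for any of the genes. A fit of those 2 groups alone called PPO1 and PPO2 (edgeR adjusted p = 0.000201 and 3.70e-05). In infested blood PPO2 fell by 1.34 ± 0.38 (edgeR adjusted p = 0.0162, 24.4% of genes passed), a call lost without 96 h replicate 2 or 3 or 120 h replicate 1. PPO1 changed there by -1.10 ± 0.40 (edgeR adjusted p = 0.0577). With the replicate block, which adds replicate number to the fit of all groups, PPO1 changed by -1.11 (edgeR adjusted p = 0.012). PPO3 changed by 0.67 ± 0.28 (edgeR adjusted p = 0.099).

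The PPO3 share of prophenoloxidase reads was higher with infestation. PPO3 made up 0.0667%, 0% and 0% of the reads of the 3 genes in the libraries of normal lymph gland, against 45%, 23.5% and 52.4% in infested lymph gland (replicates 1, 2 and 3). In blood at 96 h it made up 0% and 0.0426% in normal libraries (replicates 2 and 3) and 21.9%, 15.8% and 16.5% in infested libraries. In blood at 120 h it made up 0.137% and 0.164%, and 52.7%, 42.6% and 41.1%. PPO3 was the most counted of the 3 genes in infested lymph gland replicates 1 and 3 and in all infested blood libraries at 120 h, and the least counted in the rest. The low share of infested lymph gland replicate 2 comes from the shallowest library, with 136 reads of the 3 genes (exact 95% interval 16.7% to 31.6%). Its interval does not reach those of replicates 1 and 3, 41.1% to 49.1% and 46.9% to 57.8%. These intervals cover counting error only and take each read as an independent molecule. Dividing each count by transcript length moved no share by more than 0.801 percentage points.

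**Figure D3:**
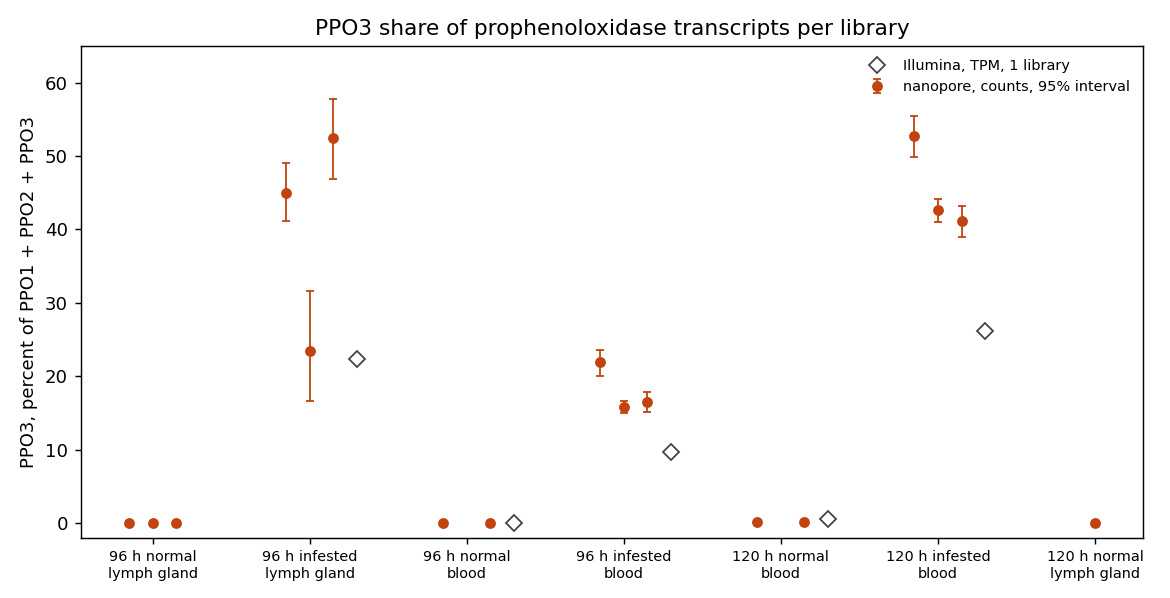
PPO3 as a percent of PPO1, PPO2 and PPO3 together (vertical axis) in each library by group (horizontal axis), with nanopore counts as filled points with exact 95% binomial intervals and Illumina TPM as open diamonds. Normal libraries stay under 1% and infested libraries lie between 9.74% and 52.7%.

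Written as a ratio, PPO3 to PPO1 plus PPO2 was 0.82, 0.308 and 1.1 in infested lymph gland, 0.28, 0.188 and 0.197 in infested blood at 96 h, and 1.12, 0.743 and 0.698 in infested blood at 120 h. Normal libraries held at most 0.00164. On the log2 scale, with 0.5 added to each count, infested exceeded normal libraries by 11.29 in lymph gland and by 9.95 (96 h) and 9.02 (120 h) in blood. With the tissue and age kept fixed the mean difference was 10.08 (exact two-sided permutation test, p = 0.0005, the smallest that the 2000 relabelings allow, 0.004 adjusted over the 8 ratio tests). Every infested library lay above every normal one. Each tissue and age taken alone cannot give an exact p below 0.1, which is what each gave (0.133 adjusted). The added count sets the value in libraries with no PPO3 read.

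The ratio of PPO1 to PPO2 moved far less. It was 0.587 ± 0.0495 (SD, n = 3) in normal and 0.57 ± 0.169 (n = 3) in infested lymph gland, and 0.613 ± 0.0157 (n = 2) against 0.518 ± 0.0448 (n = 3) in blood at 96 h. In blood at 120 h it was 0.739 ± 0.00752 (n = 2) against 0.595 ± 0.017 (n = 3). Normal and infested libraries did not overlap in blood at either age and overlapped in lymph gland. On the log2 scale infested minus normal was -0.07, -0.25 and -0.31, and -0.21 over the 3 settings together (exact two-sided permutation test, p = 0.037, 0.133 adjusted over the 8 ratio tests), which did not pass the adjustment.

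The reads of the 3 genes together did not hold level. Summed TMM-scaled CPM was 2891 ± 1033 (SD, n = 3) in normal and 322 ± 72.1 (n = 3) in infested lymph gland, 9596 ± 441 (n = 2) and 3376 ± 1273 (n = 3) in blood at 96 h, and 4631 ± 8.76 (n = 2) and 2091 ± 671 (n = 3) in blood at 120 h. Normal and infested libraries did not overlap in any of the 3 settings.

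The library of normal lymph gland at 120 h, from the other kit, is described alone. Its unscaled levels were 1120 CPM of PPO1 (exact 95% Poisson interval 1094 to 1147), 2074 CPM of PPO2 (2039 to 2110) and 0.803 CPM of PPO3 (0.261 to 1.87, from 5 reads). PPO3 made up 0.0251% of its reads of the 3 genes (exact interval 0.00817% to 0.0587%), within the range of normal lymph gland at 96 h.

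The Illumina libraries give levels per transcript length, in TPM (transcripts scaled to the same sum in each library), from 1 library a condition and with no test. PPO1, PPO2 and PPO3 stood at 14015, 19555 and 5.81 TPM in normal blood at 96 h, where PPO2 ranked 3rd and PPO1 6th among all genes. Infested blood at 96 h held 2350, 3416 and 622 TPM. Normal blood at 120 h held 1381, 2441 and 21.5 TPM, and infested blood at 120 h 936, 1365 and 816 TPM. Infested lymph gland at 96 h held 328, 510 and 240 TPM.

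Directions with infestation were those of the nanopore libraries, and some sizes were not. PPO1 was 5.96-fold and PPO2 5.72-fold lower at 96 h, but 1.48-fold and 1.79-fold lower at 120 h, and PPO3 was 107-fold and 37.9-fold higher. In normal blood PPO1 was 10.1-fold and PPO2 8.01-fold lower at 120 h than at 96 h. The nanopore falls there were 1.86-fold and 2.24-fold (log2 changes -0.89 and -1.16), and neither passed. The PPO3 share of the summed TPM was 22.3% in infested lymph gland, 9.74% in infested blood at 96 h and 26.2% in infested blood at 120 h, each below all nanopore libraries of the same group. In normal blood it was 0.0173% at 96 h and 0.56% at 120 h. PPO2 exceeded PPO3 per length in all 5 libraries, and the PPO1 to PPO2 ratio of TPM was 0.566 to 0.717.

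**Figure D4:**
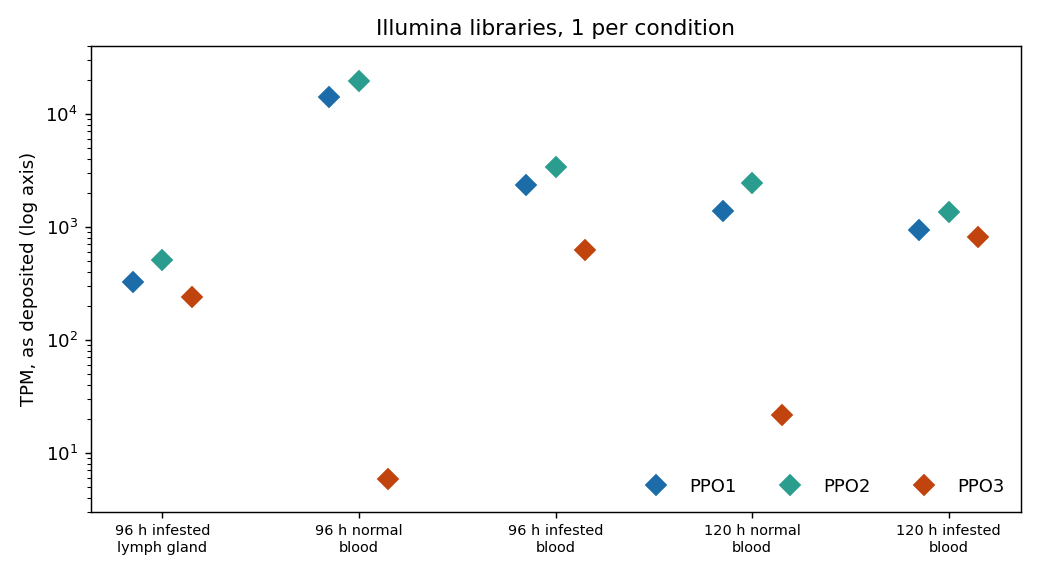
Deposited TPM (vertical axis, logarithmic) of PPO1, PPO2 and PPO3 in the 5 Illumina libraries, 1 per condition (horizontal axis), with no error because there are no replicates. PPO3 rises from 5.81 and 21.5 TPM in normal blood to 622 and 816 TPM in infested blood, and stays below PPO2 in each library.

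The other markers of the cell types that make these enzymes were counted beside them. Of 12 crystal cell markers other than PPO1 and PPO2, 8 fell in lymph gland, and in blood 6 fell at 96 h and 7 at 120 h, while none rose (at unadjusted p under 0.05, 1 rose at 120 h, and with DESeq2 none rose; 5.13%, 4.97% and 19.4% of all genes tested passed; median log2 changes -2.35, -1.52 and -1.45, against 0.00, 0.00 and -0.03 over all genes tested). Levels of single genes here and below are in TMM-scaled CPM. CG9119 stood at 173 ± 48.7 CPM in normal and 11.3 ± 5.25 CPM in infested lymph gland, a fall (log2 change -3.80 ± 0.33, edgeR adjusted p = 4.15e-06), and CG17109 changed by -3.75 ± 0.24 (edgeR adjusted p = 1.66e-07). Men, the malic enzyme, changed less, by -1.15 ± 0.13 (edgeR adjusted p = 6.40e-05). The same 3 genes also fell in blood at both ages. The list's lz and peb passed the filter on low counts through normal libraries alone, and Naam through infested libraries alone. The falls counted include lz and peb in lymph gland and peb in blood at both ages, so the counts are a description. Without replicate 1 of both infested blood groups, 7 fell at 96 h and 6 at 120 h, and without infested lymph gland replicate 2, 8 fell in lymph gland.

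Of 12 lamellocyte markers other than PPO3 that were tested, 9 rose in lymph gland, and in blood 9 rose at 96 h and 11 at 120 h, while none fell, at an unadjusted p under 0.05 and with DESeq2 included (medians 2.67, 4.70 and 5.48, or 4.57 in blood at 96 h where a gene without normal reads is set to its lower bound). ItgaPS4 and Drip, counted among those that rose, passed the filter on low counts through infested libraries alone, as PPO3 did, so they had to differ, and the counts are a description. Those counts did not change without replicate 1 of both infested blood groups or without infested lymph gland replicate 2. CG1208, a sugar transporter family gene, rose by 6.72 ± 0.37 in lymph gland and, in blood, by 8.30 ± 0.46 at 96 h and 7.59 ± 0.36 at 120 h (edgeR adjusted p = 4.35e-08, 4.74e-08 and 9.25e-09). The water channel gene Drip had no read in normal lymph gland and was at least 41-fold higher with infestation (3 counts over the group). Of 10 plasmatocyte markers, 5, 4 and 6 fell and none rose in the 3 comparisons, in which 5.13%, 4.97% and 19.4% of all genes passed, at an unadjusted p under 0.05 and with DESeq2 included (medians -0.99, -0.58 and -1.09).

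**Figure D5:**
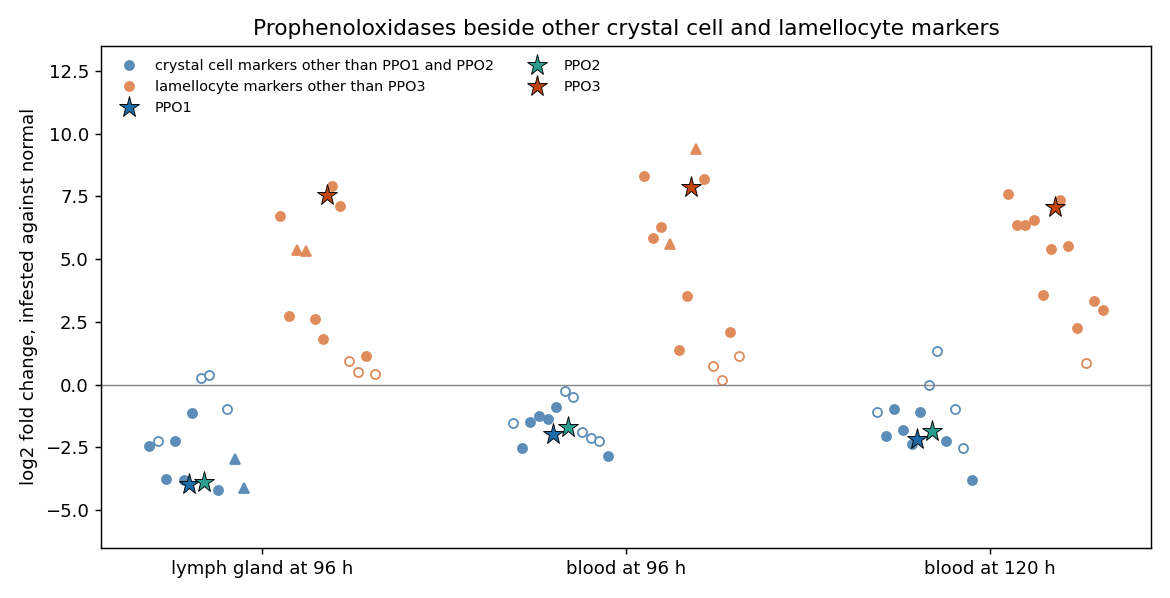
Log2 fold changes with infestation (vertical axis) of 12 crystal cell and 12 lamellocyte markers and of PPO1, PPO2 and PPO3 (stars) in the 3 settings (horizontal axis), filled where the edgeR adjusted p was under 0.05, with triangles at the bound for genes with no read in a group. The stars of PPO1 and PPO2 lie among the crystal cell markers and that of PPO3 near the top of the lamellocyte markers.

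Genes with the most similar profiles were found by the root mean square difference of centred log2 CPM over the 16 libraries, among 4910 genes with at least 20 CPM in a group. The nearest gene to PPO1 was PPO2 and the nearest to PPO2 was PPO1 (0.21, against a median of 1.93 and 1.87 over all genes). CG9119, fok and meep came next for both, at 0.49, 0.53 and 0.64 from PPO1 and 0.42, 0.46 and 0.57 from PPO2. The fifth was CG6034 for PPO1 (0.67) and the sulfotransferase gene St3 for PPO2 (0.61). The nearest to PPO3 were CG1208 (0.74), the alpha tubulin gene alphaTub85E (0.77), CG14610 (0.94), the non-coding lncRNA:CR44948 (0.95) and the integrin alpha subunit gene ItgaPS4 (0.96), against a median of 3.59. CG9119 and fok are on the crystal cell list, and CG1208 and ItgaPS4 on the lamellocyte list. Those lists were chosen with earlier results of these data known. ItgaPS4 and PPO3 passed the filter on low counts through infested libraries alone, so their profiles had to share low normal levels. Group means in infested blood at 96 h and 120 h were 772 and 3435 CPM for CG1208, 1863 and 6694 CPM for alphaTub85E and 581 and 923 CPM for PPO3, and the difference between these steps was not tested.

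Genes that act on the enzymes were followed from the protease cascade to the pigment. Counts of calls in these lists stand beside the 5.13% (lymph gland), 4.97% (blood at 96 h) and 19.4% (blood at 120 h) of all genes that passed, and a call at 120 h is the most common. Of 12 genes of prophenoloxidase activation and its inhibitors, 5 had enough reads to be tested, and none passed in lymph gland or in blood at 96 h with edgeR or DESeq2 (at unadjusted p under 0.05, 1 in lymph gland and 0 in blood). In blood at 120 h 1 of the 5 passed, near the share of all genes. Spn27A, the serpin that restrains prophenoloxidase activation, fell to 182 ± 38.5 CPM against 555 ± 32.2 in normal blood (log2 change -1.61 ± 0.24, edgeR adjusted p = 0.000193). The protease gene MP1 stood at log2 changes of -0.51, 0.29 and -0.56 in the 3 comparisons (edgeR adjusted p = 0.406, 0.686 and 0.19).

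Only 2 of 8 melanin precursor and pigment enzyme genes were tested. The gene yellow-f, for a dopachrome conversion enzyme of melanin synthesis, rose from 44.2 ± 7.34 to 93.8 ± 26.3 CPM in lymph gland, from 115 ± 21.9 to 240 ± 28.4 CPM in blood at 96 h and from 294 ± 12.8 to 551 ± 67.4 CPM at 120 h. Its log2 changes were 1.07 ± 0.22, 1.06 ± 0.23 and 0.90 ± 0.22 (edgeR adjusted p = 0.00788, 0.0166 and 0.00925). Dhpr, for dihydropteridine reductase, rose in blood at 120 h by 1.37 ± 0.21 (edgeR adjusted p = 0.000281).

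Copper genes were read because the enzymes bind copper. Of 10 tested, Atox1, the copper chaperone gene, fell in all 3 comparisons, from -1.85 ± 0.31 in lymph gland to -1.43 ± 0.31 and -1.27 ± 0.32 (log2 changes) in blood at the 2 ages (edgeR adjusted p = 0.00167, 0.0156 and 0.0112). In blood at 120 h 3 of the 10 passed. There the metallothionein gene MtnA rose by 2.01 ± 0.27 (edgeR adjusted p = 7.14e-05), and the copper importer gene Ctr1B fell by 2.67 ± 0.89 (edgeR adjusted p = 0.0469) from 11.7 ± 3.65 CPM. At 120 h DESeq2 counted 1 rise and 1 fall, against 1 and 2 with edgeR. In lymph gland it counted 1 rise and 1 fall, against 0 and 1, and in blood at 96 h 1 fall, as with edgeR. MtnB, MtnD and MtnE passed the filter on low counts through infested libraries alone. Ctr1B needed libraries of both states to pass that filter, and held 1.82 ± 1.74 CPM in infested blood at 120 h.

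Of 9 tested genes of crystal cell specification, lz, the Runx factor of that lineage, fell in lymph gland from 8.14 ± 5.05 CPM to no read, at least 7.9-fold lower (edgeR adjusted p = 0.0145). Both lz and Ser passed the filter on low counts through normal libraries alone, and lz held 11.7 and 27.7 CPM in normal blood at 96 h. The fall of lz in lymph gland is therefore given as a description. In blood the log2 changes of lz were -2.26 ± 0.73 and -2.53 ± 1.00 at 96 h and 120 h (edgeR adjusted p = 0.105 and 0.0971). The receptor gene N (Notch) fell in blood by 1.40 ± 0.27 and 1.29 ± 0.28 (edgeR adjusted p = 0.00638 and 0.00473), and yki, the Hippo pathway coactivator gene, rose at 120 h by 1.65 ± 0.25 (edgeR adjusted p = 0.000208), so 2 of 9 passed there, near the share of all genes. Of 5 genes tied to crystal cell rupture, none passed with edgeR in lymph gland or in blood at 96 h (0 and 1 at unadjusted p under 0.05, and 0 and 1 with DESeq2). At 120 h 2 of the 5 passed, and egr had reached the low-count filter through infested libraries alone. Rho1, a small GTPase gene, rose by 0.58 ± 0.15 (edgeR adjusted p = 0.0142) and egr, the fly TNF, by 3.17 ± 0.84 (edgeR adjusted p = 0.0154), to 14.3 ± 4.21 CPM.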

How the data were processed

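The tools named in the submitters' processing notes, without their roles, are minimap2 2.17-r941, RSEM 1.3.1, STAR 2.5.3a, FastQC 0.11.8 and StringTie 2.1.3. The authors deposited whole-number counts per gene for nanopore libraries and estimated counts per transcript (used, rounded, as an alternative). For Illumina libraries the authors deposited expected counts and TPM per gene, per the file headers, and TPM was used as deposited. Not given in the sources used here are the nanopore counter, its use of strand and the genome build. Ambiguous reads came to 0.503 to 1.31% and reads outside genes to 0.383 to 0.788% of gene counts, and both were left out.

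The 16 libraries of the SQK-PCB109 kit entered 1 edgeR 4.0.16 fit in R 4.3.3 with 6 groups and 10 residual degrees of freedom (quasi-likelihood F test, TMM, filterByExpr with minimum count 10 and total 15, Benjamini-Hochberg threshold 0.05, 9 comparisons). DESeq2 1.42.0 was an alternative. The edgeR and permutation code were tested on simulated data. Log2 ratios of members were compared by exact permutation within tissue and age (scipy 1.17.1). Of 124 genes in 12 lists, 123 matched a gene identifier. The members, lists and tests were chosen with earlier results of these data known. Named list genes are up to 4 per list and comparison with the smallest p and, in the activation, pigment, rupture and copper lists, every member that passed. The fits without replicate 1 of both infested blood groups, and the list counts without infested lymph gland replicate 2, were chosen after seeing the data.

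The main fit did not pair samples by replicate number. As an alternative, the replicate block added replicate number to the fit of all groups. For the ratios it paired same-numbered normal and infested libraries. Deviations of same-numbered libraries from their group means correlated at 0.29, 0.17 and 0.13 between infested blood at 96 h and 120 h. In lymph gland (0.13, 0.03 and 0.13) and the other comparisons the correlations did not all exceed 0.1.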

Additional observations from a re-analysis of the deposited data

How the results depend on the processing

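PPO3 was higher and PPO1 and PPO2 lower with infestation under every alternative run for the gene tests, and the ratio of PPO3 to PPO1 plus PPO2 was higher with infestation under every alternative run. Over the 3 tissues and ages the log2 difference of that ratio was 9.69 to 10.47 with 1 library left out. With the replicate block it was 10.14 (7 same-numbered pairs, all higher, exact sign-flip p = 0.0156, the smallest that 7 pairs allow). The deviations of these paired normal and infested libraries correlated at only -0.02 to 0.13. The replicate block changed no call of the 3 genes other than PPO1 in infested blood between ages (-1.11). Summing blood replicates 2 and 3 ended the calls of PPO1 and PPO2 for infestation in blood at 96 h (-2.12 and -1.86) and 120 h (-2.33 and -2.03) and for normal blood against lymph gland (1.79 and 1.73), and of PPO2 in infested blood between ages (-1.33), with fewer samples in the fit. Added calls came without the filter for PPO1 and PPO2 in normal blood between ages (-0.91 and -1.18), for PPO1 and PPO3 in infested blood between ages (-1.13 and 0.64) and for PPO1 and PPO2 between tissues' infestation effects (2.07 and 2.27). They also came with only the groups compared for normal blood between ages (-0.91 and -1.18) and with DESeq2 for PPO2 between tissues (2.23), and the cause was not tested. With 1 library left out, values ran as follows. For infestation in blood at 96 h they were -2.14 to -1.68 for PPO1 and -1.89 to -1.36 for PPO2, and for normal blood against lymph gland 1.61 to 2.13 and 1.54 to 2.03. For PPO3 with infestation they were 7.05 to 10.14 in lymph gland, 7.17 to 12.36 in blood at 96 h and 6.91 to 7.33 at 120 h. The first 2 of these ranges are wider than the SE of the main fit would give. In infested blood between ages they were -1.38 to -0.76 for PPO1, -1.66 to -1.02 for PPO2 and 0.48 to 0.86 for PPO3. The difference between tissues of the infestation effect was 1.90 to 2.55 for PPO2 and -2.25 to 4.79 for PPO3, which turned sign without normal lymph gland replicate 1 (-2.25) or 96 h normal blood replicate 2 (-0.40). That between ages was -0.48 to 0.15 for PPO1 and -0.50 to 0.16 for PPO2, turning sign without 120 h infested blood replicate 1 (0.15 and 0.16) or, for PPO2, 96 h infested blood replicate 2 (0.03). PPO3 in normal blood against lymph gland ran from -2.61 (without 96 h normal blood replicate 3) to 4.42. None of the values that turned sign was called. The log2 ratio of PPO1 to PPO2 ran from -0.29 (without infested lymph gland replicate 2, adjusted p = 0.004 by exact permutation) to -0.16 over the 3 settings, and from -0.30 to 0.08 in lymph gland, turning sign without infested replicate 1 (0.08) or 3 (0.01). Numbers of genes called moved by over 1.5 times in several comparisons: for infestation 71 to 744 against 352 in blood at 96 h, 199 to 636 against 363 in lymph gland and 435 to 1591 against 1375 in blood at 120 h. For blood against lymph gland they ran from 215 to 893 against 531 (normal) and 431 to 1025 against 780 (infested), between ages from 26 to 726 against 302 (normal) and 799 to 2706 against 1725 (infested), and for the differences of the infestation effect from 1 to 183 against 20 (tissues) and 0 to 488 against 137 (ages). The few PPO3 reads in normal libraries limit the size of its change, not its direction.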
